A study of Oryctolagus cuniculus with 6 samples.

Results

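The genes described here drive mitosis and cytokinesis: 33 genes were listed by name, and a gene was counted as present on the array when the gene name or the description of a probe gave it. That left 27 genes with 56 probes, of 10002 named genes and 43603 probes on the array. TOP2A, CENPA, CENPF and BIRC5 had no probe. AURKA and SPAG5 had probes that only the reference's symbol table named, and are given apart. Messenger RNA was read on 6 one-colour arrays, 1 for each sample. The samples were smooth muscle cells released from basilar arteries; the rabbits were female and of the New Zealand White breed. In the ligated group (n = 3) both common carotid arteries had been tied, a procedure that increases basilar flow, and in the sham group (n = 3) they had been exposed without being tied. The agents and times were the same in both groups: cells were taken on day 5, after 45 min of perfusion of the whole artery with elastase at 0.4 mg/ml and collagenase at 1 mg/ml. The labels do not say whether an array holds 1 rabbit or a pool, so p-values measure the spread between these arrays.

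A cell enters mitosis when cyclin B and CDK1, switched on by upstream kinases, phosphorylate proteins throughout the cell, so that chromosomes condense and the spindle forms. Kinetochores then tie chromosomes to microtubules, and a checkpoint holds back the anaphase-promoting complex until all are attached. CDC20 and UBE2C let that complex destroy cyclin B and securin, after which the midzone motors, anillin and the formins shape the furrow that parts the daughter cells. In a healthy adult artery wall smooth muscle cells rarely divide, and transcripts of these genes, which most cells make only late in the cell cycle, are scarce.

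Each value rests on 60-base probes. The 7 sequences that follow are shown because probes of the same gene adjoin or overlap and read the group difference to a like or an unlike extent; capitals mark the 30 bases that both TTK probes share.
CDK1 first: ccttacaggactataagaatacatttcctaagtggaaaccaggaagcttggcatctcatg
CDK1 middle: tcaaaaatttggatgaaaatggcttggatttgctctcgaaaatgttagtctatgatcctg
CDK1 last: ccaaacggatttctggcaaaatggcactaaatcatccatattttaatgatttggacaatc
CCNB1 upstream: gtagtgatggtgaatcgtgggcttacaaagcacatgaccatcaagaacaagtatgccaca
CCNB1 downstream: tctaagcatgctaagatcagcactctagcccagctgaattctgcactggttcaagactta
TTK upstream: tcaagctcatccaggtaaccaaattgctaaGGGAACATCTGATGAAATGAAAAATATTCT
TTK downstream: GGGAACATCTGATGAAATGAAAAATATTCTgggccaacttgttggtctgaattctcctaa
The array files give positions on oryCun2. The CDK1 probes follow one another on the minus strand at chr18:25389574-25389633, chr18:25387842-25389573 and chr18:25387782-25387841. The middle one spans 1732 bases of genome with 60 bases of probe, as a probe across a splice junction does. The CCNB1 probes lie on the plus strand at chr11:85370994-85371158 and chr11:85371159-85371218 and the TTK probes at chr12:66971940-66972276 and chr12:66972247-66972306. The upstream CCNB1 and TTK probes span 165 and 337 bases, and the downstream probes 60 bases each.

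The next 4 sequences belong to ANLN, which no sham array read above background, to UBE2C, whose 5 probes changed alike, and to PTTG1 and KIF20A, the 2 genes whose groups overlapped.
ANLN: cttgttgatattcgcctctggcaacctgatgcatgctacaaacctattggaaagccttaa
UBE2C: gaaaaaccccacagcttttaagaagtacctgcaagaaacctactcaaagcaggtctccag
PTTG1: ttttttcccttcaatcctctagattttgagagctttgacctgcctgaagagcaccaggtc
KIF20A: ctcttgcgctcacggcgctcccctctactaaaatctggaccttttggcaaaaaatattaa
The ANLN probe lies at chr10:19944624-19944683, the PTTG1 probe at chr3:41837117-41839544 (a span of 2428 bases) and the KIF20A probe at chr3:20485538-20485597, all on the plus strand of oryCun2. The files give no position for the UBE2C probe.

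Levels are given as log2 of the processed signal minus the 75th percentile of the same array, so that 0 is the level of that percentile and 1 unit is a doubling. On this scale the 10 spike-in controls had a median difference of -0.81, ligated minus sham, and 3 were lower on every ligated array. The part of this shift in the changes of genes was not tested. On the 6 arrays 58.7% to 63.7% of probes were well above background, and no spot was saturated. Slide 1 carried the 3 sham arrays and slide 2 the 3 ligated arrays, so a slide effect and an effect of ligation cannot be told apart here. Sham 3 alone was scanned on scan day 2. Sham 2 and sham 3 were unusually alike: the robust SD of their difference over 10624 bright probes was 0.176 in log2, against 0.342 or more in every other pair, so counts are also given with these arrays averaged into 1 sample. Of 12 smooth muscle markers 11 had a probe, and all 11 were well above background on all 6 arrays. This does not check the labelled cell type, since 91.3% of all named genes tested were well above background on all 3 sham arrays.

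Transcripts of most mitosis genes were several-fold higher in ligated than in sham arteries. Of the 26 genes with a tested probe (1 that stood well above background on 3 or more of the 6 arrays), 23 rose past an adjusted p of 0.05 in limma, all by 2-fold or more, 0 fell, and 3 did not pass. At an unadjusted p under 0.05, 24 were higher and 0 lower, beside 15.4% and 12.4% of all named genes. Among all 7557 named genes tested in the same fit, 6.21% were called higher and 2.69% lower. The median change of the 26 genes was 2.96 in log2 (7.77-fold), beside 0.01 over all named genes. It was 1.32 after normexp background correction without spots of high local background and 0.94 after normexp on all spots, under which 0 of 26 passed. With the 4 genes that no sham array read above background set to their lower bounds, the median was 2.75. Every ligated array was above every sham array for 24 of the 26 genes, beside 17.8% of all named genes. With sham 2 and sham 3 averaged, 21 of 26 were called higher, beside 2.08% of named genes.

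The filter favours genes that are high in 1 group, because 3 arrays suffice. Of the 26 genes, 15 were well above background on all 3 sham arrays (57.7%, beside 91.3% of all named genes tested), 7 on some and 4 on none, and all 26 were so on all 3 ligated arrays. Among the 15 genes read on all 6 arrays 13 were called higher when only such probes were tested, beside 6.17% of the 23435 probes in that fit. The median change of the 15 was 2.83.

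**Figure D1:**
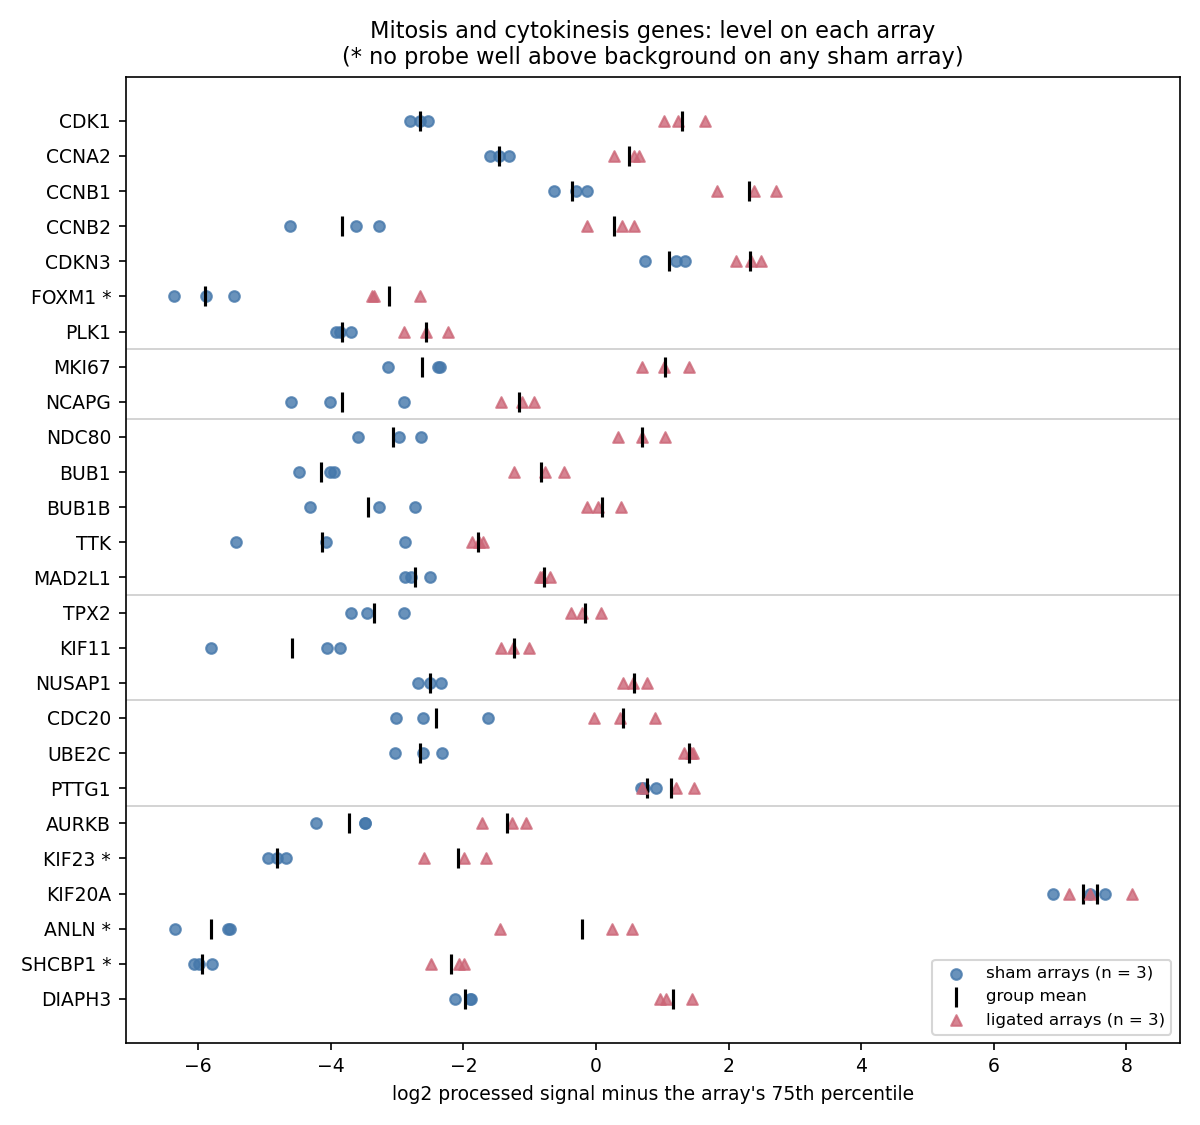
Level of each of the 26 tested genes on each array (log2 processed signal minus the array's 75th percentile, horizontal axis), with sham arrays as circles, ligated arrays as triangles and group means as bars, and genes ordered by role. The ligated arrays lie to the right of the sham arrays for 24 genes, and the arrays overlap for PTTG1 and KIF20A; positions of different genes are not comparable, since each gene is read by its own probe.

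All 7 genes of entry into mitosis rose, with a median change of 2.67, or 1.96 with FOXM1 at its lower bound. CDK1, the kinase that drives mitosis, read -2.80, -2.54 and -2.65 in sham and 1.03, 1.64 and 1.24 in ligated arteries, a 15.6-fold rise (3.96 ± 0.22 in log2, SE, adjusted p = 0.00136). The gap between the highest sham and the lowest ligated array was 3.56. The 3 adjoining CDK1 probes printed above all rose, by 4.25, 3.96 and 3.71 from first to last. The first was well above background on 1 of the 3 sham arrays, and the middle and last probes on all 3. CCNB1, the cyclin B that partners CDK1, read -0.14, -0.30 and -0.64 in sham and 1.83, 2.38 and 2.72 in ligated arteries on its downstream probe, a rise of 2.67 ± 0.28. On the upstream probe, which ends at the base before the downstream one begins, it read -3.06, -2.93 and -2.71 in sham and 1.13, 1.68 and 1.85 in ligated arteries, a rise of 4.46 ± 0.25. Both CCNB1 probes separated the groups, and the size of the rise differed between them by 1.79.

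CCNB2, the second cyclin B, rose by 4.11 ± 0.39, from -3.62, -4.62 and -3.27 in sham to -0.14, 0.57 and 0.39 in ligated arteries, and was well above background on 2 of the 3 sham arrays. CCNA2, a cyclin of S phase and early mitosis, rose by 1.96 ± 0.20, from -1.46, -1.31 and -1.60 to 0.28, 0.57 and 0.66. FOXM1, a transcription factor that switches on many genes of this group, read -5.88, -6.37 and -5.46 in sham, never well above background, and -3.37, -2.65 and -3.36 in ligated arteries. On the processed signal its rise was at least 2.17-fold, and this bound ran from 1.84-fold to 2.37-fold with 1 array left out. For the bound each sham array was set to its own limit, unless the FOXM1 signal was brighter. The limit is the dimmest signal marked well above background on that array. The fitted FOXM1 change of 2.78 (adjusted p = 0.00672 in limma) depends on sham signals below that limit.

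Among the genes of this role read above background in sham, the smallest rises were those of CDKN3, a phosphatase that acts on CDK1, and PLK1, the polo-like kinase that promotes mitotic entry and spindle assembly. CDKN3 read 0.74, 1.21 and 1.34 in sham and 2.12, 2.50 and 2.34 in ligated arteries, a rise of 1.22 ± 0.23 (adjusted p = 0.0275), and its 3 probes gave 1.13 to 1.26. PLK1 read -3.69, -3.87 and -3.92 in sham and -2.23, -2.57 and -2.90 in ligated arteries, a rise of 1.26 ± 0.23 (adjusted p = 0.0241). The groups of both genes lay apart by 0.78 and 0.80. Both calls ended with sham 2 and sham 3 averaged (adjusted p = 0.0844 for CDKN3 and 0.104 for PLK1). Leaving out 1 array ended the CDKN3 call for each array but sham 1 and the PLK1 call for ligated 1, ligated 2, sham 2 or sham 3, with adjusted p up to 0.0993 and 0.110.

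Both tested genes of chromosome structure rose. MKI67, whose Ki-67 protein coats mitotic chromosomes and is the usual marker of cycling cells, read -3.14, -2.35 and -2.39 in sham and 1.03, 1.40 and 0.70 in ligated arteries, a 12.7-fold rise (3.67 ± 0.30). NCAPG, a condensin subunit, read -4.01, -2.90 and -4.60 in sham and -1.43, -0.94 and -1.11 in ligated arteries, a rise of 2.67 ± 0.44 (adjusted p = 0.0178). Its sham arrays had an SD of 0.87, and only 1 of them was well above background. The NCAPG call ended without ligated 1, without ligated 2 or without sham 3, with adjusted p up to 0.0740.

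Of 5 tested kinetochore and checkpoint genes 4 rose, with a median change over the 5 of 3.32. NDC80, which binds spindle microtubules at the outer kinetochore, read -3.59, -2.65 and -2.97 in sham and 0.33, 1.04 and 0.70 in ligated arteries, a rise of 3.76 ± 0.31. Its second probe rose by 4.66 and was well above background on 1 of the 3 sham arrays. BUB1, a checkpoint kinase, rose by 3.32 ± 0.27, from -4.49, -3.95 and -4.01 to -1.23, -0.48 and -0.77, with 1 sham array well above background. BUB1B, the BubR1 protein that restrains CDC20, read -4.31, -3.27 and -2.73 in sham and -0.13, 0.38 and 0.03 in ligated arteries. All 4 of its probes rose, by 3.53 to 4.49 on fitted changes. The brightest, whose levels are given, was well above background on 2 sham arrays and the probe at 4.49 on 1. The probe at 4.43 was so on no sham array, which bounds its rise as at least 9.32-fold. MAD2L1, the Mad2 protein that seizes CDC20, changed least of these genes, by 1.94 ± 0.19, from -2.88, -2.50 and -2.80 to -0.82, -0.69 and -0.84. Its arrays lay close together within each group (SD 0.20 in sham and 0.08 in ligated arteries), and its 4 probes gave 1.94 to 2.15 on fitted changes. The MAD2L1 probe at 2.05 was well above background on no sham array, which bounds its rise as at least 3.56-fold.

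TTK, the Mps1 kinase at the head of the checkpoint, did not pass on the probe that stands for it, the brightest of 4. That probe, the upstream one printed above, read -5.43, -2.88 and -4.08 in sham and -1.77, -1.87 and -1.71 in ligated arteries, a change of 2.35 ± 0.60 (adjusted p = 0.0623). The groups lay apart by 1.01, and the sham SD was 1.28 against 0.08 in ligated arteries. This upstream probe was well above background on 2 of the 3 sham arrays, and sham 1 lay below its limit of -4.04. The downstream probe shares 30 bases with the upstream one. It read -6.36, -5.42 and -5.67 in sham and -1.91, -2.23 and -2.11 in ligated arteries and passed, with a change of 3.73 ± 0.28. The other 2 probes passed as well, at 3.64 and 4.11. None of the 3 passing probes was well above background on any sham array. Their rises are therefore bounded as at least 4.48-fold for the downstream probe and at least 2.71-fold and 5.88-fold for the others. On its brightest probe or the mean of its probes TTK passed in 5 of 18 alternative settings, among them without sham 1 or without sham 2. CENPE, a kinetochore motor, had 1 probe, which was not tested: it read -4.96, -4.04 and -5.21 in sham and -4.24, -4.06 and -4.13 in ligated arteries, well above background on 1 ligated array only.

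All 3 tested spindle genes rose. TPX2, which activates Aurora A and nucleates spindle microtubules, read -2.89, -3.69 and -3.46 in sham and 0.08, -0.21 and -0.37 in ligated arteries, a rise of 3.18 ± 0.27. NUSAP1, which bundles microtubules near chromosomes, rose by 3.09 ± 0.20, from -2.69, -2.34 and -2.50 to 0.41, 0.56 and 0.77, and its 3 probes gave 2.77 to 3.09. KIF11, the kinesin that pushes the spindle poles apart, rose by 3.35 ± 0.52, from -5.82, -3.87 and -4.06 to -1.24, -1.43 and -1.02. KIF11 was well above background on 2 of the 3 sham arrays, and its sham 1 value lay below that array's limit of -4.04. This low value gave KIF11 a sham SD of 1.07. The KIF11 call ended without ligated 1 or without ligated 2 (adjusted p up to 0.0608). SPAG5, also known as astrin, which helps hold spindle poles and kinetochore fibres together, was named only through the symbol table, since its probes carry no gene's name in their description. It read -4.01, -3.29 and -3.36 in sham and 0.40, 0.80 and 0.90 in ligated arteries, a rise of 4.25 ± 0.27. The probe with these levels was well above background on 2 of the 3 sham arrays. The 5 SPAG5 probes gave 3.44 to 4.25 on fitted changes. The probe at 3.69 was well above background on no sham array, which bounds its rise as at least 7.72-fold.

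AURKA, the kinase of the spindle poles, was also named through the symbol table only, by the gene number of its 1 probe. The probe's own description says it is like Aurora kinase B, so which kinase it reads is uncertain. It read -4.51, -4.16 and -4.59 in sham, never well above background, and -2.29, -1.97 and -2.16 in ligated arteries, a rise of at least 4.31-fold. With SPAG5 and AURKA counted, 25 of 28 genes were higher.

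Of 3 anaphase genes 2 rose. UBE2C, the E2 enzyme that starts ubiquitin chains for the anaphase-promoting complex, read -3.03, -2.61 and -2.32 in sham and 1.43, 1.46 and 1.33 in ligated arteries, a 16.7-fold rise (4.06 ± 0.23, adjusted p = 0.00136). Its 5 probes were well above background on all 6 arrays and gave 3.76 to 4.06. CDC20, the activator that brings substrates to the complex, read -3.01, -1.63 and -2.61 in sham and -0.03, 0.37 and 0.89 in ligated arteries, a rise of 2.83 ± 0.41 (adjusted p = 0.0135). The CDC20 call ended without ligated 2 or without sham 3, with adjusted p up to 0.0640. PTTG1, the securin that the complex destroys to free separase, read 0.73, 0.68 and 0.91 in sham and 0.70, 1.49 and 1.20 in ligated arteries, a difference of 0.36 ± 0.25 that did not pass (adjusted p = 0.389). Its lowest ligated array lay among the sham arrays.

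Of 6 tested genes of the passenger complex and cytokinesis 5 rose, with a median change over the 6 of 2.93, or 2.27 with 3 genes at their lower bounds. AURKB is the kinase of the chromosomal passenger complex, and its probe is described by the older name serine/threonine-protein kinase 12. It read -4.22, -3.49 and -3.48 in sham and -1.72, -1.26 and -1.06 in ligated arteries, a rise of 2.38 ± 0.29. The AURKB probe was well above background on 2 of the 3 sham arrays. ANLN, the anillin scaffold of the cleavage furrow, read -6.35, -5.53 and -5.55 in sham, never well above background, and 0.25, 0.54 and -1.45 in ligated arteries, a rise of at least 16.3-fold. Leaving out ligated 3 raised the bound to 25.0-fold, leaving out ligated 2 lowered it to 12.5-fold, and the second probe gave at least 7.58-fold. The ligated arrays of ANLN spread with an SD of 1.07 about ligated 3, which was low on its second probe too (-1.10, -0.74 and -2.13).

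DIAPH3, a formin that builds actin filaments, read -2.12, -1.89 and -1.91 in sham and 0.96, 1.46 and 1.05 in ligated arteries, a rise of 3.13 ± 0.21, and its second probe gave 3.27. KIF23, the kinesin of the centralspindlin complex, read -4.95, -4.68 and -4.81 in sham, below the background limit, and -1.99, -1.66 and -2.59 in ligated arteries, a rise of at least 4.48-fold. SHCBP1, a midbody protein that binds Shc, read -6.07, -5.99 and -5.79 in sham, also below the limit, and -2.50, -2.07 and -2.00 in ligated arteries, a rise of at least 4.17-fold, with at least 2.10-fold and 2.55-fold on its other 2 probes. The arrays of all 3 genes were well apart between the groups.

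KIF20A, a kinesin of the central spindle, was the other gene whose groups overlapped. It read 7.46, 7.68 and 6.90 in sham and 7.46, 7.13 and 8.08 in ligated arteries, a difference of 0.21 ± 0.33 (adjusted p = 0.701). The difference ran from -0.05 to 0.60 over the alternative settings, so it has no settled direction. The KIF20A group means, 7.35 in sham and 7.56 in ligated arteries, were the highest among the tested mitosis genes, and what this probe reads is not settled. The gene models of KIF20A and CDC23 overlap in the reference mOryCun1.1. The CDC23 probe read -2.81 in sham and -2.56 in ligated arteries on average, a difference of 0.26 (adjusted p = 0.608 in limma). Whether the overlap bears on the KIF20A signal was not tested.

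**Figure D2:**
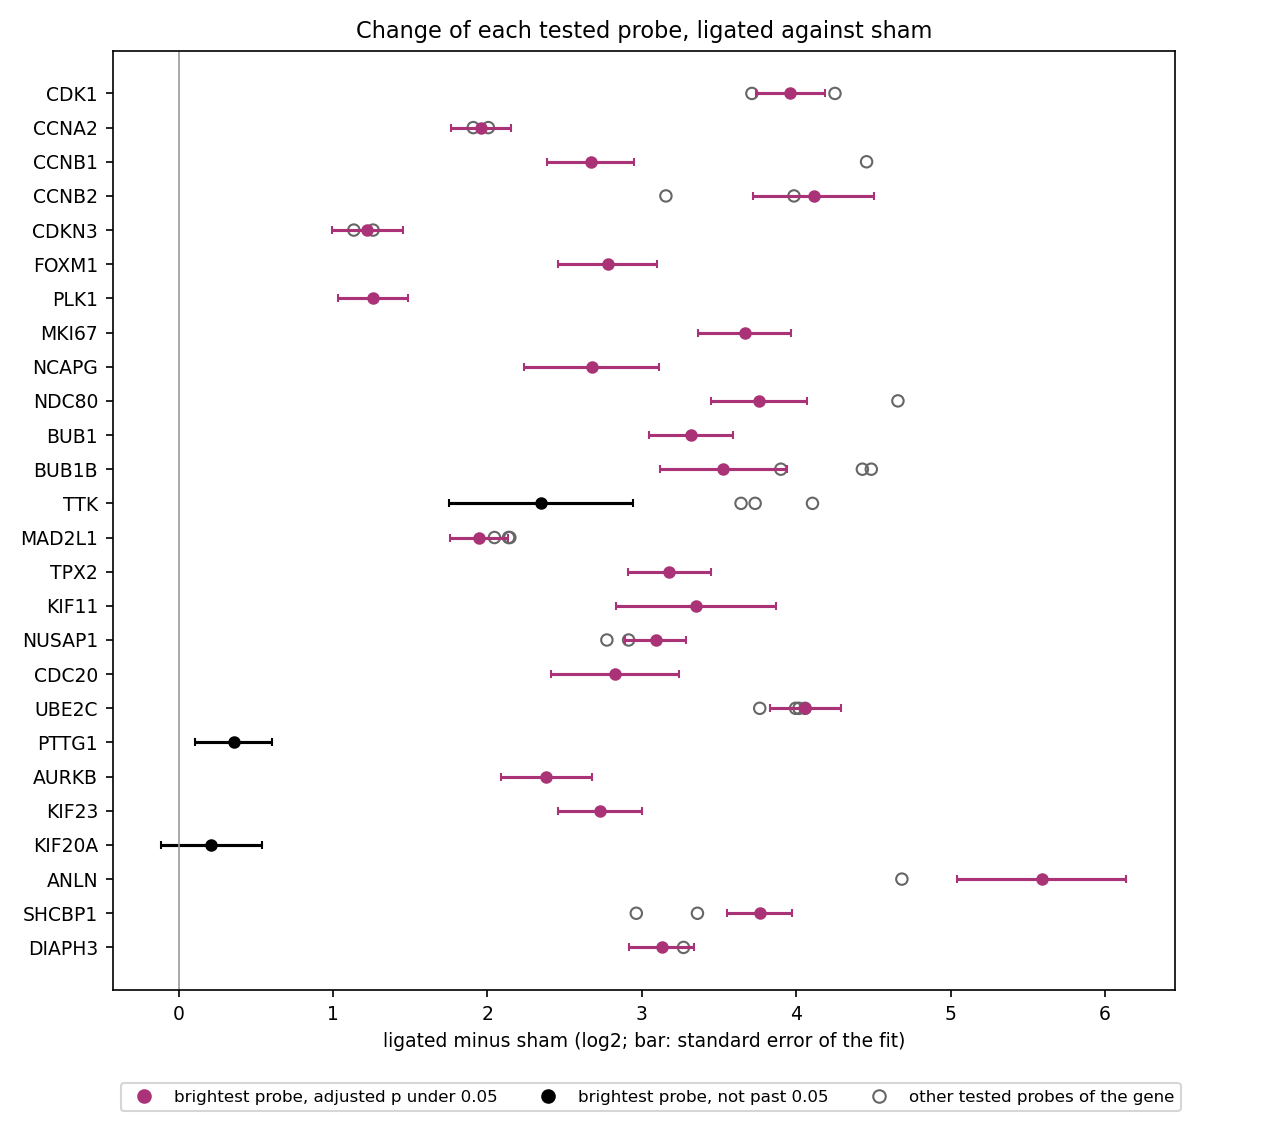
Change of each tested probe, ligated minus sham (log2, horizontal axis), by gene; filled points are the brightest probe of a gene with the standard error of the fit as bars, coloured where the adjusted p was under 0.05, and open circles are its other tested probes. All probes lie right of 0, with PTTG1 at 0.36 and KIF20A at 0.21 nearest to it, and the TTK and CCNB1 probes spread by 1.76 and 1.79; changes of probes not above background in sham rest on sham signals below the limit.

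Different probes of a gene mostly gave the same call. Of 55 tested probes 52 were called higher and 0 lower, beside 5.71% and 2.65% of all 27410 tested probes. Of all 56 probes 13 were well above background on no sham array. The tested ones among these 13 passed the filter through the ligated arrays alone, which favours a call of higher. Of the 14 genes with several tested probes, all probes rose in 13, TTK being the exception. The range between probes of a gene had a median of 0.67 and ran from 0.10 for CCNA2 to 1.79 for CCNB1. The brightest probe gave the smallest change of its gene in 6 of these genes, on fitted changes, the largest in 5 and one in between in 3. Over the 27 probes well above background on all 6 arrays, 25 were called higher, with a median change of 3.09. Of all probes read on all 6 arrays 6.17% were called higher when they alone were tested.

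The order of arrays within a group was similar for many of these genes, which share the arrays and so are not independent. Among ligated arrays, ligated 2 was the highest for 15 of 26 genes, beside 32.0% of all named genes, and ligated 1 was the lowest for 16, beside 35.7%. The median level of the 26 genes was 0.02, 0.46 and 0.21 on ligated 1, 2 and 3, and -3.36, -2.77 and -2.88 on sham 1, 2 and 3. Sham 1 was the lowest sham array for 17 of the genes, and the share over all named genes was not computed for sham arrays. The differences between arrays of a group were thus small beside the distance between the groups. The median SD of the 26 genes was 0.38 in sham and 0.32 in ligated arteries, beside 0.25 and 0.32 over all named genes.

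Other genes of mitosis rose less uniformly. A list of 119 such genes, none of them among the 33, had 68 tested: 27 rose, 0 fell and 41 did not pass. Of all named genes tested 6.21% were called higher and 2.69% lower. The median change of the 68 was 1.05, or 1.01 with 7 genes at their lower bounds. At an unadjusted p under 0.05, 39 were higher and 2 lower, beside the 15.4% and 12.4% of all named genes. With sham 2 and sham 3 averaged 19 were higher, and 14 were without sham 3 and 15 without ligated 2. SGO1, shugoshin, which guards cohesin at centromeres, read -6.27, -6.12 and -6.72 in sham and -1.18, -3.00 and -2.25 in ligated arteries, a rise of at least 4.30-fold. KIF14, a kinesin of cytokinesis, rose at least 5.90-fold and was not above background on any sham array. SPC25, which forms a complex with NDC80, rose by 3.31 ± 0.29, from -4.52, -4.61 and -3.73 to -0.73, -0.98 and -1.24.

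The brightest genes of that list that did not pass were ANAPC13, a subunit of the anaphase-promoting complex, at 0.07 ± 0.20, and TACC3, a spindle protein, at 1.38 ± 0.57 (adjusted p = 0.177). TACC3 read 1.20 on sham 1, and 3.16 and 3.02 on sham 2 and sham 3. When the list was divided by role, with its values already seen, all 6 tested kinesins rose, the 4 read above background on some sham array by 1.32 (KIF20B) to 2.13 (KIF18A). Of 9 tested kinetochore and centromere proteins 5 rose, with a median change of 1.39. With sham 2 and sham 3 averaged 4 kinesins (without KIF15 and KIF20B) and 3 kinetochore and centromere proteins (without CENPN and CENPT) passed. Of 9 tested subunits of the anaphase-promoting complex 0 passed, with a median of 0.19; CDC27, at 2.22 ± 0.55 (adjusted p = 0.0598), stood apart from the others, which lay between -0.11 and 0.48. Of 5 tested cohesin genes only the shugoshins SGO1 and SGO2 rose, while the ring subunits SMC1A and SMC3 were at -0.17 ± 0.29 and -0.42 ± 0.18 and STAG2 at -0.74 ± 0.26. Of 5 condensin subunits NCAPG2 alone passed, and of 4 cytokinesis proteins ECT2 and CEP55 did, ECT2 no longer with sham 2 and sham 3 averaged. No difference between these sets was tested.

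Genes of DNA replication, which act in the S phase before mitosis, moved less. Of 41 listed 27 were tested: 7 rose, 1 fell and 19 did not pass, with a median change of 0.17. Of all named genes tested 6.21% were called higher and 2.69% lower. POLE, the catalytic subunit of the leading-strand polymerase, rose by 2.52 ± 0.26, from -3.82, -3.12 and -3.11 to -0.92, -0.94 and -0.62. RRM2, the regulated subunit of ribonucleotide reductase, rose by 2.41 ± 0.34, MCM6, a subunit of the replicative helicase, by 1.69 ± 0.20, and the thymidine kinase TK1 2.83-fold. The sliding clamp PCNA, at -0.04 ± 0.23, and the clamp loader subunit RFC1, at -0.12 ± 0.22, did not pass. RFC3, another clamp loader subunit, was the gene that fell, by 1.11 on the log2 scale (adjusted p = 0.0369, and 0.104 with sham 2 and sham 3 averaged), and is named because it was the only one. Averaging sham 2 and sham 3 left 4 genes higher, beside 2.08% of all named genes. Leaving out ligated 1, ligated 2 or sham 3 also left 4, and TK1 was not among them. The difference between the replication list and the mitosis genes was not tested.

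**Figure D3:**
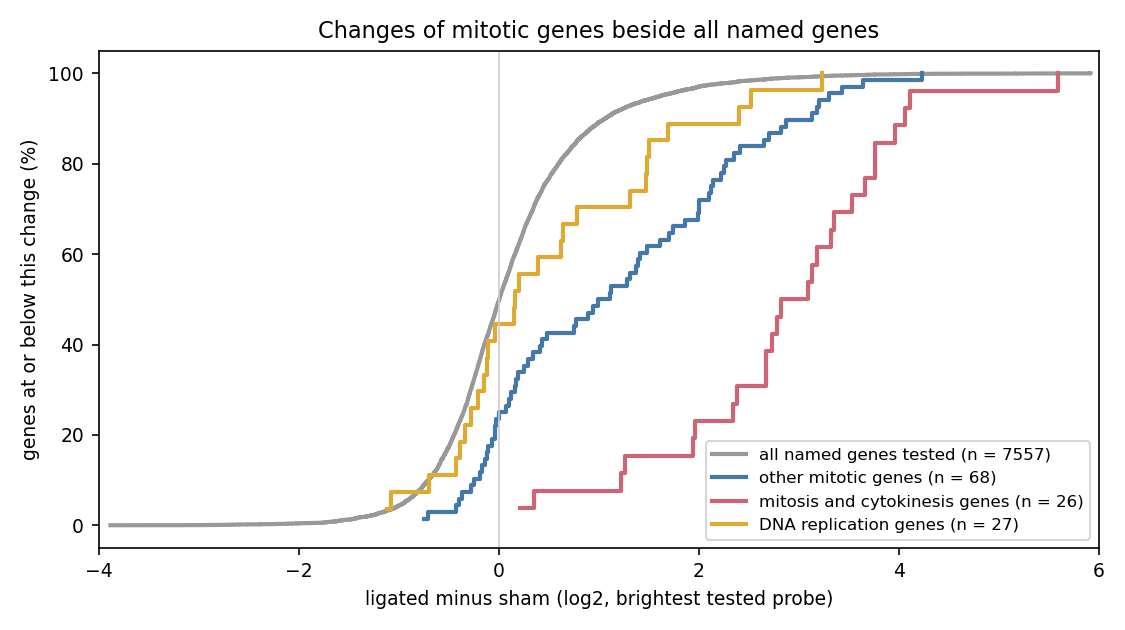
Cumulative share of genes (percent, vertical axis) at or below a given change, ligated minus sham (log2, horizontal axis, brightest tested probe), for all 7557 named genes tested, 27 DNA replication genes, 68 other mitotic genes and the 26 mitosis and cytokinesis genes. The medians are 0.01, 0.17, 1.05 and 2.96 in that order.

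Markers of other cell types were read beside the mitosis genes, since the preparation was not sorted by any step the labels name. None of the tested markers of endothelium (6), macrophages (7), lymphocytes (8), neutrophils (5) or erythroid cells (3) passed the limma test in either direction. With 3 arrays in each group, not passing does not show that a marker was unchanged. The median changes were 0.03, 0.28, -0.87, 0.30 and -1.88 in that order. ITGAM, a macrophage marker, came nearest to passing, at 1.05 (adjusted p = 0.0546 in limma). The summed level of the macrophage markers, on the linear scale relative to the 75th percentile, was 9.40 to 22.3 in sham and 9.81 to 35.2 in ligated arteries, and that of the endothelial markers 52.2 to 105 and 55.7 to 141. The sums were 0.88 to 9.63 and 0.89 to 5.74 for lymphocytes, 1.18 to 3.94 and 2.64 to 6.46 for neutrophils, and 189 to 389 and 28.5 to 668 for erythroid cells, all overlapping between the groups. Such sums weigh the brightest markers most. Of 7 tested fibroblast markers 4 rose (LUM, COL1A1, MFAP5 and FAP), with a median change of 2.11 and a sum of 97.7 to 116 in sham and 198 to 293 in ligated arteries. With sham 2 and sham 3 averaged 2 of these 4 passed. Of 11 tested smooth muscle markers 2 fell, SMTN to a change of -1.77 and DES to one of -1.11 (SMTN alone with sham 2 and sham 3 averaged). All of the 11 but ACTG2 (0.19) were lower on average in ligated arteries, with a median change of -1.01. Their sum was 1243 to 2164 in sham and 532 to 1352 in ligated arteries, which overlap. The part of these shifts in the mitosis result was not tested. In RNA from a mixed preparation, more dividing cells and more of a transcript in each cell cannot be told apart, nor can the cell type that divides be read from these arrays.

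The calls were recomputed under each alternative setting. No call turned its direction under any of them, and 17 of the 23 genes kept their call in all but 1 of the settings that tested them. The exception was normexp background correction of the raw signals, under which 0 of the 26 genes and 0 of all tested probes were called. At an unadjusted p under 0.05 in that fit, 13 of the 26 were higher and 0 lower, beside 645 of all 27410 tested probes in either direction. When spots with a local background over 2 times the array median were left out first, 22 of 26 were higher again, beside 4.68% of all tested probes, with a median change of 1.32. The FOXM1 and PLK1 calls ended in that setting and TTK passed.

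**Figure D4:**
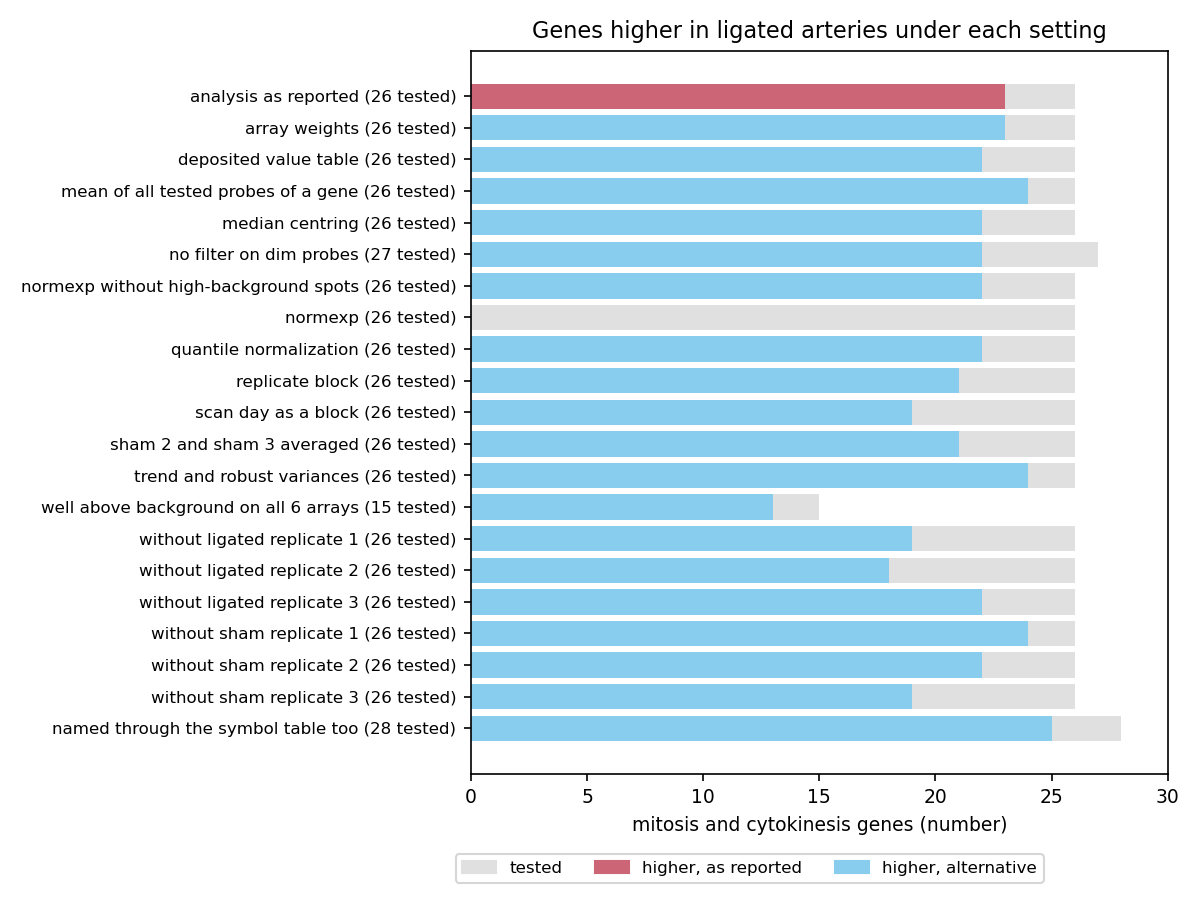
Number of mitosis and cytokinesis genes tested (grey) and called higher in ligated arteries (coloured, adjusted p under 0.05, horizontal axis) as reported and under each alternative setting (rows). As reported 23 of 26 are higher; leaving out 1 array gives 18 to 24, normexp on all spots 0, and restriction to probes above background on all 6 arrays 13 of 15.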

How the data were processed

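Total RNA of 6 samples was labelled with Cy3 and read on one-colour arrays, with scans read by Agilent Feature Extraction 10.7 per the submitters' processing notes. Per the file headers, the processed signal is a background-subtracted, detrended intensity with no scaling between arrays, in which a surrogate stands for low values; the raw signal and local background are unprocessed intensity values, and the spot marks are flags of 0 or 1. The deposited value table holds log2 values; the sources used here do not say how it was made. From the processed signal, outlier spots were left out, repeated spots averaged in log2, and each array's 75th percentile subtracted. Of 43603 probes, 27410 were well above background on at least 3 arrays and were tested with limma 3.58.1 in R 4.3.3 (two-sided, Benjamini-Hochberg over all tested probes, threshold 0.05); the script was tested on simulated data. The number of arrays limits the precision.

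The members and lists were chosen with earlier results of these data known. Every member with a probe is named, by its brightest tested probe over the 6 arrays; from each other list the 4 passing genes with the largest change and the 2 brightest that did not pass are named, except 1 gene that is not reported here. Other genes were named through the symbol table of mOryCun1.1: 22543 probes had 1 symbol, 67 several and 20993 none. A gene not above background on any sham array is given as a lower bound, from each array's lowest signal called well above background. Such a bound holds for the processed signal of these arrays only, and it moves when 1 array is left out. Under normexp without high-background spots the fitted log2 changes were 0.49 for FOXM1, 0.70 for KIF23, 0.85 for SHCBP1, 0.70 for AURKA and 2.11 for ANLN. Alternatives were other background corrections (normexp with an offset of 50), scalings, filters, probe summaries, variance models, blocks and left-out arrays, the deposited table, and sham 2 and sham 3 averaged. Promoter motifs were not analysed here.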

Additional observations from a re-analysis of the deposited data

How the results depend on the processing

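Among the 26 tested mitosis genes the number called higher was 23 as reported, 18 to 24 without 1 array, and 19 or more under every other setting except normexp (0) and the filter on all 6 arrays (13, of 15 tested). The median change of 2.96 was 0.94 under normexp and 1.32 under normexp without high-background spots, and 2.78 to 3.16 without 1 array. The count lower was 0 throughout. Why normexp ended the calls was not tested, beyond the return of 21 of the 23 calls, and a pass of TTK, without high-background spots. Under normexp 2 of 68 other mitotic genes and 2 of 27 replication genes were higher at an unadjusted p under 0.05. Of all 27410 tested probes 645 were under 0.05 in either direction in that fit.

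Of all tested probes 2290 were called, against 0 under normexp, 5980 with array weights, 1524 with no filter on dim probes, 552 with scan day as a block, 595 with sham 2 and sham 3 averaged, and 552 to 2269 without 1 array. Other mitotic genes called higher numbered 27, against 0 under normexp, 14 with scan day as a block, 14 under the filter on all 6 arrays and 14 to 23 without 1 array. DNA replication genes called higher numbered 7, against 0 under normexp, 4 with scan day as a block, 4 with sham 2 and sham 3 averaged and 4 to 7 without 1 array. Median centring shifted the median over all tested probes from 0.01 to -0.19 and the share of calls that were higher from 68.3% to 52.2%; the mitosis genes' median was then 2.76, and 22 were higher.

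Nothing in the labels says that the replicate numbers pair the arrays. Deviations of same-numbered arrays from their group means correlated at 0.43, -0.57 and 0.58. These values cannot decide whether the arrays are paired, since the 3 deviations within a group are not independent. With the replicate block 1295 probes, 21 mitosis genes (CDKN3 and PLK1 lost), 22 other mitotic genes and 4 replication genes were called. Scan day 2 held 1 sham array, so that block removes it. Signal over background limits the 11 mitosis genes that were not read on every sham array.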
